A study of Homo sapiens with 12 samples.

Results

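The APOBEC3 cytidine deaminases are encoded by 7 genes that lie in a row on human chromosome 22: APOBEC3A, APOBEC3B, APOBEC3C, APOBEC3D, APOBEC3F, APOBEC3G and APOBEC3H. Members were chosen by name, as the rows of a gene count table whose Ensembl identifiers map to these symbols, and all 7 were found among 60669 identifiers. RNA with a polyA tail had been sequenced from 12 libraries of HT1080, a human fibrosarcoma line. The cells of every library carried dCas9, a Cas9 that binds DNA without cutting it and is used in CRISPR interference, and were kept under blasticidin and puromycin. One line (genotype dCas9_CRISPRi_GFP) expressed a control guide RNA against GFP, with 2 untreated libraries and 2 treated with interferon beta (IFNB, 10 U/mL for 4 h). The other expressed a guide RNA aimed at an LTR8B element, a retroviral long terminal repeat within SP140 intron 1, with 4 libraries untreated and 4 with the same IFNB treatment. These are called GFP cells and LTR8B cells below. The labels name 1 line per guide and no second guide, and do not say whether a line was a clone, so a difference between the guides cannot be told apart from a difference between the lines. Whether replicates came from separate cultures is not stated either, and p-values here therefore reflect the spread among these libraries alone.

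APOBEC3 enzymes convert cytosine to uracil in single-stranded DNA. They restrict retroviruses and endogenous retroelements by mutating the viral DNA during reverse transcription, and HIV counters several of them with Vif, a protein that recruits a cellular ubiquitin ligase to degrade them. APOBEC3A and APOBEC3B are also known as sources of mutations in tumour genomes, and several family genes are interferon-stimulated in immune cells.

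On hg38, with positions from GENCODE release 29 and all on the plus strand, APOBEC3A (ENSG00000128383.13) spans 38952741 to 38992778 and APOBEC3B (ENSG00000179750.16) spans 38982347 to 38992804. The APOBEC3A span covers most of the APOBEC3B gene, so the 2 annotations overlap. APOBEC3C (ENSG00000244509.4) spans 39014083 to 39020352, APOBEC3D (ENSG00000243811.10) 39021113 to 39033276, and APOBEC3F (ENSG00000128394.17) 39040604 to 39053910. APOBEC3G (ENSG00000239713.9) spans 39077005 to 39087743 and APOBEC3H (ENSG00000100298.15) 39097224 to 39104067. All 7 are annotated as protein-coding.

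Each enzyme is built from 1 or 2 zinc-binding deaminase domains. The coding sequence of the zinc motif is shown because it is the family's signature. Some of its copies are also so alike between members that they bear on how reads can be assigned. One motif was found by translation in APOBEC3A, APOBEC3C and APOBEC3H, and 2 in APOBEC3B, APOBEC3D, APOBEC3F and APOBEC3G. The 6 sequences below are exonic, on the plus strand of hg38, and read 5′ to 3′. Capitals mark the codons of the zinc-binding histidine and 2 cysteines and of the motif's glutamate. The APOBEC3F stretches lie at chr22:39044962-39045066 and chr22:39052095-39052199, and the second APOBEC3B stretch at chr22:38991365-38991475. Those of APOBEC3C, APOBEC3G (second domain) and APOBEC3H lie at chr22:39017787-39017891, chr22:39086312-39086416 and chr22:39101246-39101350.
APOBEC3F, first domain: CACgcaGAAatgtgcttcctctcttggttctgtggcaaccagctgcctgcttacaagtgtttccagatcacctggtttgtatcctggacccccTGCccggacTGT
APOBEC3F, second domain: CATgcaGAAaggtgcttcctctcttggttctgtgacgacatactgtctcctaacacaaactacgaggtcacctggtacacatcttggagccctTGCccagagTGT
APOBEC3C: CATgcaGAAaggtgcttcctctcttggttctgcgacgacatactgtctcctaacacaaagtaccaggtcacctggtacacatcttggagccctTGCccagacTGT
APOBEC3G, second domain: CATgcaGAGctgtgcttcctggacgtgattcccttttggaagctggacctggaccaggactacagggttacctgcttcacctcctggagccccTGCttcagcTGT
APOBEC3H: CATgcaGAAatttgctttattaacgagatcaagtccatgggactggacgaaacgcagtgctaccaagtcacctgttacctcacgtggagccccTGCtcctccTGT
APOBEC3B, second domain: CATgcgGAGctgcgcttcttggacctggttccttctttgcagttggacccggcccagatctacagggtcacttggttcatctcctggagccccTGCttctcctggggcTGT

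Some of these stretches were identical between genes. The second APOBEC3B stretch matched that of APOBEC3A at 111 of 111 bases, the first APOBEC3F stretch matched the first of APOBEC3B at 105 of 105, and the second APOBEC3F stretch matched the second of APOBEC3D at 105 of 105. APOBEC3C was identical to the second APOBEC3F stretch at 101 of 105 bases (96.2%). The second APOBEC3G stretch shared 56.2% of its bases with the second of APOBEC3F, and APOBEC3H shared 61.9% with the second of APOBEC3G. Only stretches of equal length were compared. The 111-base stretches of APOBEC3A and APOBEC3B were thus not set against the second of APOBEC3G, and the first of APOBEC3G was compared with none.

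Whole transcripts were cut into 31-base words (31-mers, the unit by which short reads are often matched). A word counted as shared if it or its reverse complement occurred in a transcript of another gene. The share of a gene's 31-mers found in another member was 47.7% for APOBEC3B, 30.2% for APOBEC3F, 28.7% for APOBEC3A and 22.6% for APOBEC3D. It was 9.41% for APOBEC3G, 6.29% for APOBEC3C and 0% for APOBEC3H. APOBEC3F shared 13% of its 31-mers with APOBEC3G and 10.6% with APOBEC3D. APOBEC3D shared 82.1% with an overlapping annotated gene, ENSG00000284554, that runs from 39014363 to 39033276 and held 1 count in all 12 libraries together. Counts of APOBEC3A against APOBEC3B, and of APOBEC3D against APOBEC3F and this overlapping gene, are therefore uncertain. So are those of APOBEC3F against APOBEC3G, APOBEC3B, APOBEC3C and this overlapping gene, which hold 13%, 4.93%, 4.16% and 10.4% of the APOBEC3F 31-mers. How the authors' counting divided such reads was not tested.

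**Figure D1:**
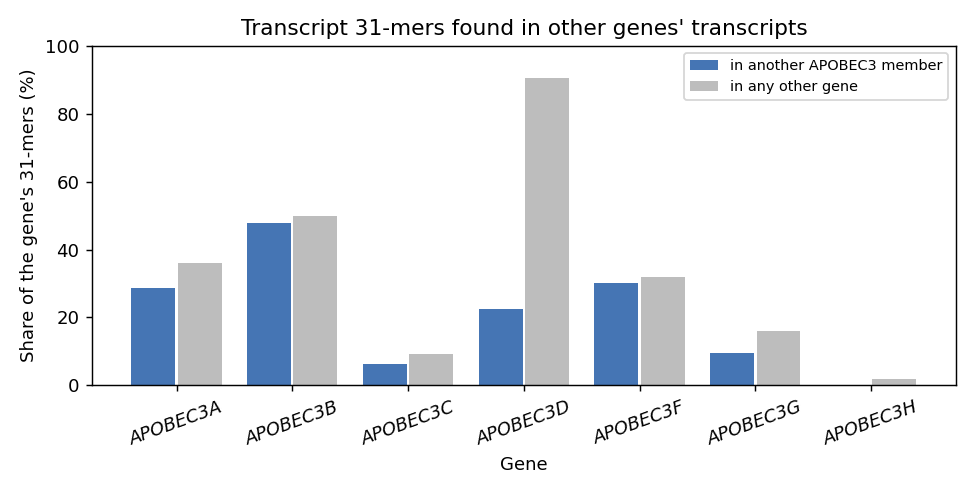
Share, in percent, of each gene's transcript 31-mers also found on either strand in another APOBEC3 gene (blue) or any other annotated gene (grey). The shares with other members run from 0% for APOBEC3H to 47.7% for APOBEC3B, and the grey bar of APOBEC3D reaches 90.7%.

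The libraries held 12404270 to 28801579 counts, of which 2504 to 5138 fell on the 7 genes. Levels are given as CPM, counts per 1000000 counts scaled by TMM (trimmed mean of M values, a library scaling). The 3 counts that a library's count of 0 still allows equal 0.100 to 0.244 CPM, and these limits and the counting intervals below cover counting error only. SP140, which carries the targeted element, averaged 30.3 CPM in untreated and 30.9 in IFNB-treated GFP cells, against 1.25 and 1.23 with the LTR8B guide. The fibroblast markers VIM, COL1A1, COL6A2, FN1 and LGALS1 summed to 3796 to 4559 CPM. The T and B cell markers, whose parent cells express several APOBEC3 genes, summed to 0.188 to 0.635 CPM, with 0 counts of CD2 in all libraries, 5 of PTPRC and 1 of MS4A1. Most of this sum was CD3E, with 97 counts in all, 3 to 12 per library. The monocyte markers CD14, LYZ, CSF1R and ITGAM summed to 5.79 to 10.9 CPM, most of it CSF1R, while CD14 had 5 counts in all libraries. The keratinocyte markers summed to at most 0.360 CPM.

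APOBEC3C, a single-domain member, and APOBEC3B, a nuclear double-domain member, made up nearly all of the family's mRNA. Per kilobase of merged exons APOBEC3C averaged 41.6 ± 3.46 CPM in untreated GFP cells (SD, n = 2) and 42.0 ± 1.66 in untreated LTR8B cells (SD, n = 4). With IFNB it averaged 43.99 ± 0.138 (SD, n = 2) and 44.97 ± 2.80 (SD, n = 4). APOBEC3B stood next, with 27.4 ± 0.00675 and 24.3 ± 1.11 CPM per kilobase untreated and 27.4 ± 2.49 and 27.1 ± 1.95 with IFNB, in GFP and LTR8B cells respectively. All 12 APOBEC3C values, from 39.1 to 48.7, lay above all 12 APOBEC3B values, from 23.0 to 29.5. As group means, APOBEC3C took 58.6% to 61.7% of the family total per kilobase and APOBEC3B 35.6% to 38.7%.

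The other 5 members were far lower. APOBEC3F ranged over the 12 libraries from 0.539 to 2.54 CPM per kilobase, APOBEC3H from 0.423 to 1.09 and APOBEC3G from 0.229 to 0.897. APOBEC3A ranged from 0.0195 to 0.218 and APOBEC3D from 0.0182 to 0.129. By the mean of the 4 group means the order was APOBEC3C, APOBEC3B, APOBEC3F, APOBEC3H, APOBEC3G, APOBEC3A and APOBEC3D. In untreated cells the APOBEC3F and APOBEC3H means lay within 1 SD of APOBEC3H of each other, at 0.683 ± 0.104 and 0.847 ± 0.345 CPM per kilobase in GFP cells (SD, n = 2) and 0.637 ± 0.0696 and 0.720 ± 0.159 in LTR8B cells (SD, n = 4). APOBEC3H was the higher in 5 of the 6 untreated libraries, and with IFNB APOBEC3F was above APOBEC3H in all 6.

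The place of APOBEC3G relative to APOBEC3H depended on treatment and on the gene length used. Over merged exons (5437 bases for APOBEC3G and 1251 for APOBEC3H) the IFNB-treated means were 0.550 and 0.680 CPM per kilobase in GFP cells, and 0.622 and 0.679 in LTR8B cells. Over the longest transcript (2775 and 1046 bases) they were 1.08 against 0.813 in GFP cells and 1.22 against 0.812 in LTR8B cells, the opposite order. Untreated, APOBEC3G was the lower by either length, for example at 0.521 against 1.01 CPM per kilobase of the longest transcript in GFP cells.

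**Figure D2:**
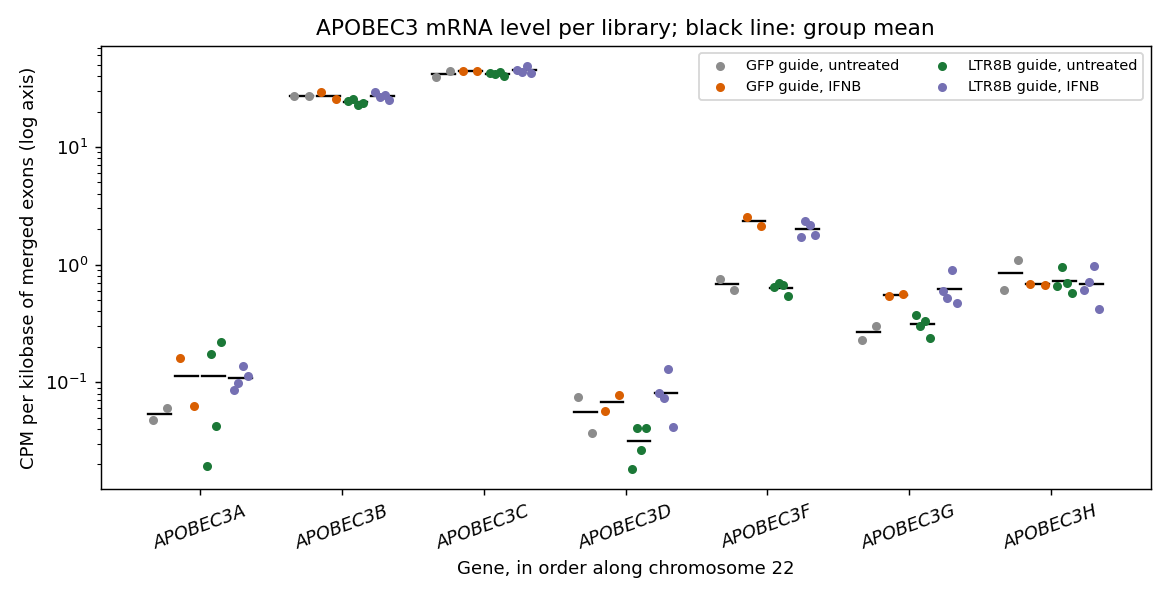
Level of each APOBEC3 gene in each library, in CPM per kilobase of merged exons on a log axis, with 1 point per library, colours for guide and treatment and a black line at each group mean. APOBEC3C and APOBEC3B lie between 23.0 and 48.7, the other 5 genes at 2.54 or below.

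APOBEC3A, a single-domain enzyme best known from monocytes and keratinocytes, was near zero. It had 3 and 3 counts in the untreated GFP libraries, 8 and 3 in the GFP libraries with IFNB, 1, 8, 3 and 10 in the untreated LTR8B libraries and 4, 5, 4 and 5 in the LTR8B libraries with IFNB. The groups overlapped, and the 12 values ran from 0.0461 to 0.514 CPM. Over all libraries of a treatment, 29 counts with IFNB against 28 without gave a depth-scaled ratio of 1.26 (95% exact counting interval 0.725 to 2.20).

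APOBEC3D, a double-domain antiretroviral member, was also near zero. Its counts were 5 and 2 in untreated GFP cells, 3 and 4 in GFP cells with IFNB, 1, 2, 2 and 2 in untreated LTR8B cells and 4, 4, 4 and 2 in LTR8B cells with IFNB, or 0.0461 to 0.325 CPM. The ratio of IFNB-treated to untreated counts, 21 against 14, scaled for depth, was 1.83 (95% exact counting interval 0.887 to 3.89), an interval that includes no difference. APOBEC3A and APOBEC3D did not pass the low-count filter, so 5 of the 7 members entered the test across 16393 genes. In an edgeR fit without that filter neither passed the threshold for IFNB averaged over the guides, with log2 fold changes of 0.51 (adjusted p = 0.907) and 0.74 (adjusted p = 0.819).

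The first comparison asked which APOBEC3 genes answered to 4 h of IFNB. APOBEC3F and APOBEC3G were higher and the other 3 tested members, APOBEC3B, APOBEC3C and APOBEC3H, did not pass the threshold, an adjusted p of 0.05 by edgeR's quasi-likelihood test with Benjamini-Hochberg adjustment over all tested genes. Averaged over the guides, 2 of 5 tested members rose, while 5.28% of all tested genes did. In LTR8B cells 2 of 5 rose, with 4.01% of all tested genes, and in GFP cells 1 of 5 rose, with 3.06%. No member fell. The median log2 fold change of the 5 members was 0.09 averaged over guides and that of all tested genes was -0.01. In bulk RNA a higher level in each cell and a larger share of cells with the mRNA cannot be told apart.

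APOBEC3F, a cytoplasmic double-domain enzyme that is packaged into HIV particles lacking Vif, had the largest rise of the 5. GFP cells held 2.45 and 1.98 CPM before treatment and 8.24 and 6.90 CPM after it. LTR8B cells held 2.07, 2.26, 2.17 and 1.75 CPM without IFNB and 5.61, 7.65, 7.07 and 5.82 CPM after it. Every IFNB-treated library lay above every untreated library, with 87 to 173 counts against 34 to 65. The log2 fold change was 1.76 in GFP cells (SE 0.21, edgeR adjusted p = 1.46e-05) and 1.65 in LTR8B cells (SE 0.15, edgeR adjusted p = 4.11e-07), about 3.39-fold and 3.15-fold. Averaged over guides it was 1.71 (95% interval 1.44 to 1.98), which ranked 156 by size among the 866 genes that rose. Its share of the family total per kilobase went from 0.970% to 3.10% in GFP cells and from 0.934% to 2.67% in LTR8B cells.

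APOBEC3G, the archetypal Vif-sensitive restriction factor of HIV, changed less. Its CPM in GFP cells was 1.25 and 1.65 untreated against 2.95 and 3.03 treated. The LTR8B libraries read 2.03, 1.65, 1.81 and 1.28 CPM untreated against 3.26, 2.85, 4.88 and 2.54 treated. All 6 treated libraries again lay above all 6 untreated ones, on 25 to 64 counts per library. APOBEC3G rose in LTR8B cells, with a log2 difference of 0.96 (SE 0.21, edgeR adjusted p = 0.00964), and averaged over guides by 1.01 (SE 0.18, edgeR adjusted p = 0.00142), ranking 266 among the 866.

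In GFP cells the APOBEC3G difference was of like size, 1.06 on the log2 scale (SE 0.30, 95% interval 0.42 to 1.69), but did not pass (edgeR adjusted p = 0.0768). The difference between the lines was -0.09 (SE 0.37, edgeR adjusted p = 0.996), so the responses were not shown to differ. The highest APOBEC3G value, 4.88 CPM, came from LTR8B IFNB replicate 3, the shallowest library, which also held the highest APOBEC3C value of the 12 libraries. Without it the log2 fold change in LTR8B cells was 0.76 (edgeR adjusted p = 0.0391), and that in GFP cells, 1.06, passed the threshold (edgeR adjusted p = 0.0348). The GFP difference also passed without the low-count filter and with a replicate block, and with 1 GFP library left out its adjusted p ran as high as 0.562.

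APOBEC3H, a single-domain member with alleles of differing protein stability, was low and did not pass. It was at 0.755 and 1.36 CPM in untreated GFP cells, 0.857 and 0.844 in GFP cells with IFNB, 0.829, 1.18, 0.870 and 0.719 in untreated LTR8B cells and 0.765, 0.886, 1.22 and 0.529 in LTR8B cells with IFNB. The groups overlapped on 10 to 29 counts per library. The difference averaged over guides was -0.21 on the log2 scale (95% interval -0.74 to 0.33, edgeR adjusted p = 0.756), so at this depth a rise of the size seen for APOBEC3G lies outside the interval but a small change in either direction does not.

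**Figure D3:**
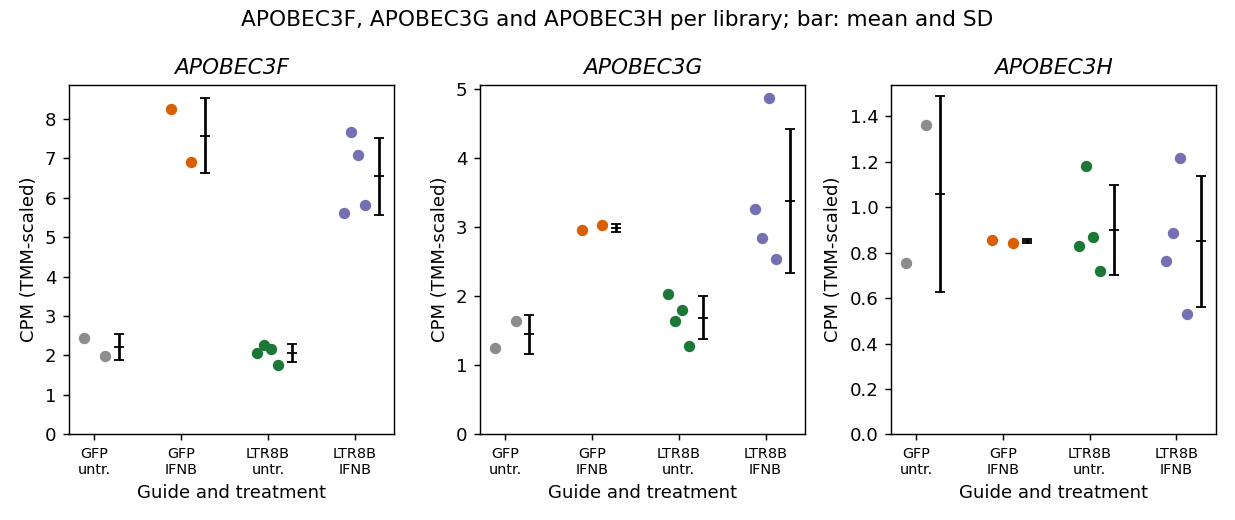
CPM of APOBEC3F, APOBEC3G and APOBEC3H in each library by guide and treatment, with the group mean and SD as a bar, n = 2 for GFP and 4 for LTR8B cells. APOBEC3F with IFNB (5.61 to 8.24) and APOBEC3G with IFNB (2.54 to 4.88) lie above their untreated libraries (at most 2.45 and 2.03), and the APOBEC3H groups overlap.

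APOBEC3B read 51.9 and 51.9 CPM in GFP cells untreated, against 55.2 and 48.6 treated. In LTR8B cells its 4 untreated values were 47.1, 48.3, 43.6 and 45.1 CPM, against 56.0, 50.2, 52.3 and 47.2 after IFNB. Treated and untreated libraries overlapped in both lines. The log2 difference was 0.00 in GFP cells (edgeR adjusted p = 0.998) and 0.16 in LTR8B cells (95% interval 0.02 to 0.30, edgeR adjusted p = 0.291). The latter reached an unadjusted p of 0.0283 and did not hold after adjustment.

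APOBEC3C read 110.2 and 124.0 CPM in GFP cells untreated, against 123.7 and 124.2 treated. Its untreated LTR8B values were 120.9, 116.8, 123.3 and 112.7 CPM, against 127.8, 122.5, 137.3 and 119.3 after IFNB. These groups overlapped as well, and the log2 difference averaged over guides was 0.09 (95% interval -0.02 to 0.20, edgeR adjusted p = 0.417). Because APOBEC3B and APOBEC3C dominate the family, the summed level was 174 ± 10.1 CPM in untreated GFP cells and 188 ± 5.35 CPM with IFNB (SD, n = 2). In LTR8B cells the sums were 169 ± 4.94 and 189 ± 11.9 CPM (SD, n = 4).

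The second comparison asked whether the guide against the SP140 element altered the family. No member passed the edgeR threshold in untreated cells, where 0.36% of all tested genes did in either direction, nor with IFNB, where 0.354% did, nor averaged over treatments, where 2.14% did. DESeq2 called 0 members in each, beside 174 of 13848, 118 of 14484 and 590 of 13848 tested genes. It gave no adjusted p for APOBEC3H in the untreated and averaged comparisons. Members called by limma-voom were 0 in each as well, beside 64, 54 and 359 of 16393 tested genes. At an unadjusted edgeR p under 0.05 the counts of members were 1, 0 and 0, beside 1841, 1553 and 2593 of 16393 tested genes. The 1 was APOBEC3B in untreated cells, where all 4 LTR8B libraries lay below both GFP libraries, with a log2 difference of -0.17 (SE 0.08, unadjusted p = 0.0457, edgeR adjusted p = 0.431). With IFNB the APOBEC3B difference was -0.01 (SE 0.08).

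The fold change between guides, averaged over treatments, was -0.16 for APOBEC3F on the log2 scale (95% interval -0.43 to 0.11) and 0.20 for APOBEC3G (95% interval -0.20 to 0.59). It was -0.09 for APOBEC3B (95% interval -0.22 to 0.03), 0.02 for APOBEC3C (95% interval -0.08 to 0.13) and -0.13 for APOBEC3H (95% interval -0.66 to 0.41). These intervals are narrowest for the abundant members and widest for APOBEC3H. Among marker genes, CSF1R (log2 fold change -0.57, edgeR adjusted p = 0.00485) and COL1A1 (-0.64, edgeR adjusted p = 0.0492) were lower with the LTR8B guide averaged over treatments, and their part in any APOBEC3 value was not tested.

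The interaction asked whether the IFNB response differed between the lines. No member passed by edgeR, DESeq2 or limma-voom, and 0% of all tested genes passed by edgeR. None of the 5 members had an unadjusted edgeR p under 0.05, beside 489 of 16393 tested genes. The difference in response was -0.11 for APOBEC3F (95% interval -0.65 to 0.43), 0.16 for APOBEC3B (95% interval -0.08 to 0.40) and 0.01 for APOBEC3C (95% interval -0.20 to 0.23). For APOBEC3G and APOBEC3H the intervals were wider, -0.87 to 0.68 and -0.89 to 1.26.

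**Figure D4:**
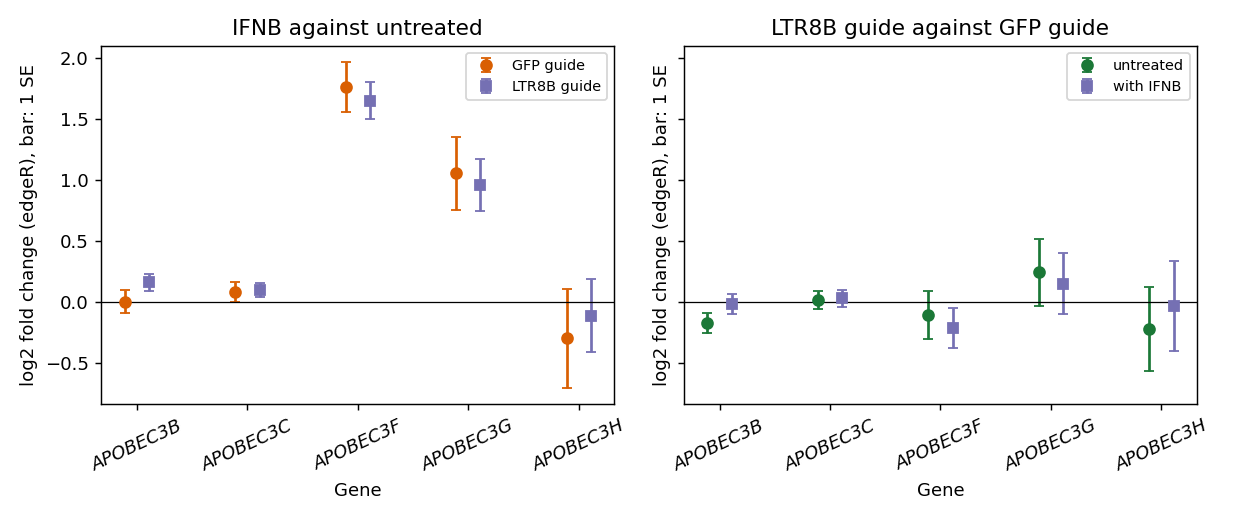
Log2 fold change of the 5 tested APOBEC3 genes, with bars of 1 SE, for IFNB against untreated in each line (left) and for the LTR8B guide against the GFP guide in each treatment (right). APOBEC3F (1.76 and 1.65) and APOBEC3G (1.06 and 0.96) stand above 0 on the left, and all values on the right lie between -0.22 and 0.24.

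Genes around the cluster on chromosome 22 gave a view of the neighbourhood. Of 16 listed neighbours 15 were tested, and 1 rose with IFNB averaged over guides, against 5.28% of all tested genes, so the count is near that share. This was GTPBP1, which encodes a GTP-binding protein, with a rise of 0.55 in log2 units (edgeR adjusted p = 1.01e-05, SE 0.07). The median of the 15 was -0.05, and none passed for the guide. Of more distant relatives of the family, APOBEC2 had 1 count in all libraries, and APOBEC1 and APOBEC4 had 0. APOBEC3B-AS1, annotated antisense to APOBEC3B, had 6 counts in all.

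Among listed regulators of APOBEC3 transcription, 4 of 14 rose with IFNB averaged over guides, against 5.28% of all tested genes, and none fell. They were IRF9 (log2 fold change 4.71) and STAT2 (2.29), which act together in type I interferon signalling, with IRF1 (1.58) and STAT3 (0.37). Listed NF-kB subunits and factors of cell-cycle gene control, such as RELA, NFKB1, E2F4 and FOXM1, did not pass in the same comparison. The median over the 14 genes was 0.02.

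Uracil left in DNA by APOBEC3 enzymes is removed by base excision repair, opened by the uracil glycosylase UNG. Of 11 genes of uracil repair, lesion bypass and nucleotide supply 1 rose with IFNB averaged over guides (5.28% of all tested genes did): SAMHD1, a dNTP hydrolase that also restricts HIV, at 3.19 in log2 units (edgeR adjusted p = 3.39e-17, SE 0.06). UNG was at -0.02, and the list's median was -0.02. With the LTR8B guide XRCC1, a scaffold of base excision repair, fell by 0.31 on the log2 scale averaged over treatments (edgeR adjusted p = 0.0118), the 1 call of 11 where 2.14% of all tested genes passed. Of 7 listed host genes tied to the ligase that Vif recruits, such as CUL5 (0.14), ELOB (-0.14) and CBFB (0.12), none passed for IFNB. Of 8 other deaminases 1 rose, beside the same 5.28%, namely the double-stranded RNA editor ADAR, by 1.40 (SE 0.05, edgeR adjusted p = 1.52e-13).

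**Figure D5:**
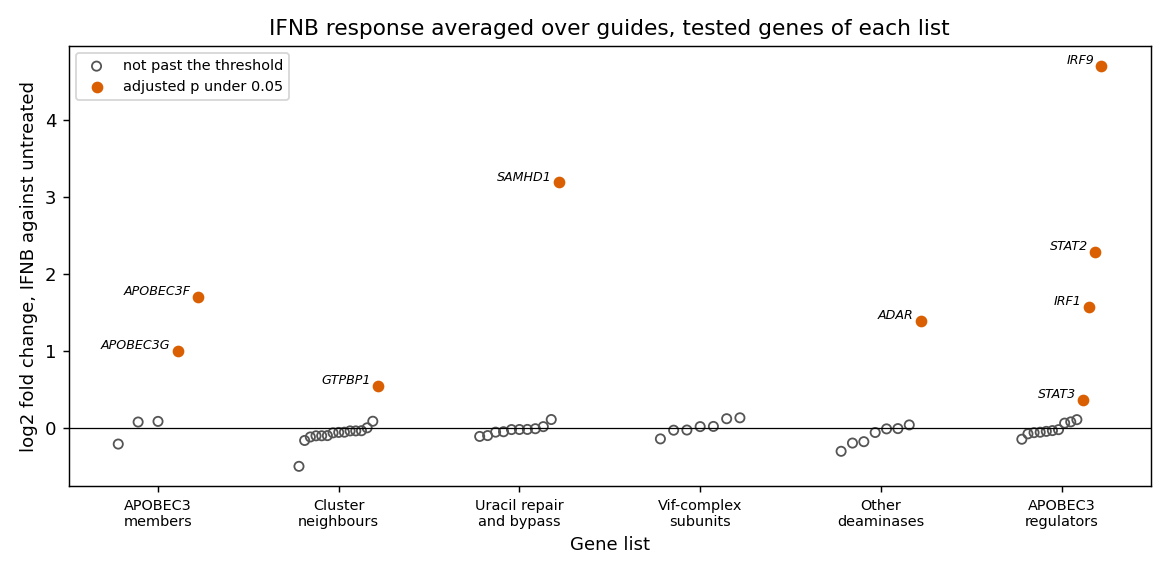
Log2 fold change for IFNB against untreated, averaged over guides, of each tested gene in the APOBEC3 family and in 5 companion lists, with filled points for an edgeR adjusted p under 0.05. APOBEC3F (1.71) and APOBEC3G (1.01) are the filled points of the family, and the regulators hold the most filled points, 4 of 14.

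Over the 12 libraries, which share treatment and guide groups, the genes whose log2(CPM + 1) followed each member most closely were found among 12988 genes with a mean CPM of at least 1. This is a description, with no test. For APOBEC3F they were PSMB9, AIM2 and MAP2, each at a Pearson r of 0.990, and their log2 fold changes with IFNB averaged over guides were 2.25, 2.79 and 1.16. For APOBEC3G they were STAT3 (0.951), SAA2 (0.949) and SLC2A12 (0.948). APOBEC3F and APOBEC3G correlated with each other at 0.858, and APOBEC3C with APOBEC3G at 0.873. By closeness APOBEC3G ranked 443 for APOBEC3F and 6 for APOBEC3C. For APOBEC3G itself, APOBEC3F ranked 233 and APOBEC3C 163. For APOBEC3B the closest were TAGLN2 (0.935), TMEM179B (0.905) and PSMA6 (0.896), none of which passed the IFNB test. For APOBEC3C they were H2BC21 (0.928), FRMD5 (0.908) and PCDHGA11 (0.891). Of these PCDHGA11 passed for IFNB averaged over guides (log2 fold change 1.10, edgeR adjusted p = 0.0289), at a mean of 1.00 CPM. H2BC21 and FRMD5 did not pass. For APOBEC3H, whose counts are few, they were PPP6R2 (0.942), SSR4P1 (0.915) and MIB2 (0.904), none of which passed.

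In the RefSeq promoter table (GRCh38.p14) 1 of the 7 members was matched, APOBEC3H, which did not pass for IFNB. Its window around the start lies at chr22:39096994-39097293. It was searched on both strands for the interferon response core, GAAA and GAAA with NN between them, which 3.57% of 35116 promoters of that length held, and for the STAT site TTCNNNGAA (7.66%). An NF-kB pattern, GGGA and TTCC with NN between them (1.61%), and the E2F letters GGCGGGAA (3.16%) were searched too. None of these patterns occurred in the window, and overlaps between motifs were allowed. Only exact matches were counted, so sites that differ by a base were not looked for. The APOBEC3F and APOBEC3G promoters were not available for comparison, and whether the search bears on the IFNB response was not tested.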

How the data were processed

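Starting values were the authors' deposited estimated counts per gene, which were whole numbers as deposited, so no rounding was needed. Per the submitters' processing notes Salmon 0.13.1, DESeq2 1.38.3 and hg38 were used. Settings, annotation release and strand use are not given in the sources used here, and overlapping genes or antisense partners cannot be told apart. A second deposited table, of normalized values, was not used. Counts were fitted with edgeR 4.0.16 in R 4.3.3: filterByExpr on the 4 groups (minimum count 10, minimum total 15), TMM, robust quasi-likelihood, 1 mean per group over all 12 libraries, Benjamini-Hochberg adjustment over 16393 genes. SEs were taken from the fold change and the F statistic, and 95% intervals from the SE and the fit's degrees of freedom. The same code was tested on simulated data. DESeq2 1.42.0, limma 3.58.1 (voom), other size factors, no filter, a replicate block and leaving out each library were alternatives. Motif and 31-mer searches used GENCODE release 29 transcripts, Python 3.11.15 and pandas 2.3.3. No replicate pair was a duplicate (chi-square per degree of freedom 2.74 to 17.4).

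The members and gene lists were chosen with earlier results of these data known. Named genes were the 7 members and SP140, up to 4 genes of a companion list with the smallest adjusted p for IFNB averaged over guides, and the 3 genes most like each tested member. Named beyond this rule, after their values were seen, were ENSG00000284554 (which overlaps APOBEC3C and APOBEC3D), XRCC1, UNG, RELA, NFKB1, E2F4 and FOXM1. Marker genes came from fixed lists of cell type markers. Some genes of the companion lists are not reported here and stay out of the counts of their lists.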

Additional observations from a re-analysis of the deposited data

How the results depend on the processing

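Over 18 alternatives the APOBEC3F rise passed in GFP cells (1.61 to 1.94 on the log2 scale), in LTR8B cells (1.56 to 1.72) and on average (1.63 to 1.80), as did APOBEC3G in LTR8B cells and on average. For the IFNB response in GFP cells the main fit called 524 of 16393 tested genes, and the fit without the low-count filter 676 of 35398. The replicate block by number called 530 of 16393 and that within each line 746 of 16393. Without LTR8B IFNB replicate 3 the calls were 502 of 16406. In GFP cells the number of members called was 1. It became 2 without the low-count filter, with the replicate block by number, with that within each line, and without LTR8B IFNB replicate 3. Leaving out 1 library gave 1 to 2. The added member was APOBEC3G each time. Same-numbered libraries correlated at 0.149 in GFP cells and 0.0869 to 0.323 in LTR8B cells. With 2 libraries per GFP group, the -0.149 for different numbers follows from the 0.149. LTR8B untreated replicates 1, 2 and 4 correlated best with their own number (0.308, 0.323 and 0.282). Replicate 3 correlated at 0.0869 with its own number and 0.0997 with IFNB replicate 4. Whether numbers mark pairs was left undecided, and the main fit did not use them. The block changed no other call. Guide effects could not be fitted with the block within each line. All sign changes were in differences that passed no threshold, and their cause was not tested. APOBEC3B with IFNB in GFP cells (0.0016) became -0.0032 by DESeq2, -0.0033 with DESeq2 size factors, -0.016 without the filter and -0.00081 by limma-voom. With the replicate block by number the guide effect under IFNB became 0.035 for APOBEC3B and 0.031 for APOBEC3H. Further ones came from leaving out 1 library, which gave these ranges on the log2 scale. For the IFNB response in GFP cells it ran from -0.10 to 0.091 for APOBEC3B, -0.00047 to 0.16 for APOBEC3C and -0.68 to 0.16 for APOBEC3H. For that in LTR8B cells it ran from -0.30 to 0.056 for APOBEC3H. For the response averaged over guides it ran from -0.39 to 0.024 for APOBEC3H. For the guide in untreated cells it ran from -0.067 to 0.10 for APOBEC3C, -0.25 to 0.066 for APOBEC3F and -0.60 to 0.25 for APOBEC3H. For the guide with IFNB it ran from -0.10 to 0.084 for APOBEC3B, -0.0091 to 0.061 for APOBEC3C, -0.053 to 0.27 for APOBEC3G and -0.22 to 0.14 for APOBEC3H. For the guide averaged over treatments it ran from -0.017 to 0.068 for APOBEC3C and -0.32 to 0.11 for APOBEC3H. For the interaction it ran from -0.067 to 0.10 for APOBEC3C, -0.28 to 0.037 for APOBEC3F, -0.29 to 0.11 for APOBEC3G and -0.28 to 0.57 for APOBEC3H. Of 35 member differences 17 never changed sign. DESeq2 gave no adjusted p for APOBEC3H in the untreated and averaged guide comparisons. Depth limits APOBEC3A and APOBEC3D, at 1 to 10 counts per library.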
